A study of Homo sapiens with 2 samples.

Results

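The regions described here are the wide accessible regions of Z-138 cells: the 1476 peaks of 600 bp or more among the 55124 control peaks of chromosomes 1 to 22 and X. They were chosen by their width in the control list, and the 1698 peaks of the knockdown library that overlap them by at least 1 bp were taken as their partners. Z-138 is an established human line of mantle cell lymphoma, a cancer of mature B cells. One library came from cells with an shRNA against SMARCA4 and the other from cells with a control shRNA. The study asked about SMARCA4 loss and the response of such cells to ibrutinib, a BTK inhibitor, with venetoclax, a BCL2 inhibitor. Both cultures were kept with doxycycline, and the peak names of both lists contain the word DMSO, the name of a common solvent. The sources used here do not give the number of shRNAs or clones behind each library. The assay was ATAC-seq: a transposase inserts sequencing adapters into DNA that is open, so reads pile up there. With 1 library per group no test between the groups can be made. The spread between cultures is unknown, so no difference between the lists can be set against it. All intervals are 95% intervals that cover counting error over regions only.

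SMARCA4 is one of the alternative ATPases of the SWI/SNF complexes, which slide and evict nucleosomes and so keep regulatory DNA open. A narrow ATAC-seq peak usually marks a single gap between nucleosomes. A wide peak can mark a stretch in which neighbouring nucleosomes are displaced or loosely held. Such stretches are typical of active promoters, CpG islands and strong enhancers. Nucleosomes were not measured here, so the wide peaks are described by their called width alone. The knockdown itself was not checked, since peak lists measure neither SMARCA4 RNA nor protein. Which genes the regions belong to and what their DNA holds were not analysed here, because no gene annotation or sequence of the build hg19 was used.

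The peak lists give no read counts, but the fold and p-value of a peak fix the number of reads stacked at its summit (the summit pileup) and the background the peak caller expected there. From these the knockdown library held 9.76 M reads or fragments and the control library 6.89 M, under an assumed genome size of 2.7 Gb. With the extension lengths of 89 bp and 94 bp, equal accessibility would give a summit pileup 1.34 times as high in the knockdown library. Depth-scaled ratios below are the log2 of the knockdown over the control pileup after division by this factor.

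Wide peaks made up 2.68% of the control peaks and 9.32% of the length that control peaks covered. Their median width was 686.5 bp (interquartile range 636 to 777 bp), and the widest measured 1367 bp. Of the 1476, 798 were 600 to under 700 bp wide, 387 were 700 to under 800 bp, 167 were 800 to under 900 bp, 84 were 900 to under 1000 bp and 40 were 1000 bp or more. The limit cuts through a continuous range: 106 peaks were 600 to 609 bp wide and 104 were 590 to under 600 bp wide. Partners of 600 bp or more were found for 54 of the 106 peaks just above the limit and for 46 of the 104 just below it. Every peak on both sides had a knockdown partner, with median depth-scaled log2 pileup ratios of -0.25 just above and -0.21 just below the limit. A summit lower by 2 times or more in the knockdown library was found at 10 of the 106 peaks just above it, or 9.43% (4.62 to 16.7%), and at 4 of the 104 just below it, or 3.85% (1.06 to 9.56%).

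These were strong peaks with a high background as the peak caller counted it, which includes the peak's own reads. The control summit pileup had a median of 27 reads and ran from 7 to 77, against a median of 8 reads for control peaks under 600 bp. The authors' deposited fold over background was 11.1 (median) in the wide peaks and 6.38 in the narrower ones. The 10 kb around a wide peak held a median of 159 reads in the control library, its own reads included, against 51 reads around the narrower peaks whose background exceeded the lowest value. Local reads increased with width, from a median of 139 at 600 to under 700 bp to 278.5 at 1000 bp or more, while the median fold was 11.3 and 9.69 in the same classes. The widest peaks were thus not those of the highest fold. Summits lay more often near the centre than near the ends: 741 of the 1476, or 50.2%, fell in the central one of 3 equal parts of their peak, against 49.6% at 300 to under 600 bp. These values come from the library that chose the peaks and are given as a description.

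Every wide control peak was also accessible in the knockdown library. All 1476 overlapped a knockdown peak (interval of the share 99.8 to 100%), where 60.5% of all control peaks did. The share was 94.2% (93.7 to 94.7%) for control peaks of 300 to under 600 bp and 53.2% (52.7 to 53.7%) for those under 300 bp. Much of this gap went with pileup. Between 20 and 24 control reads, 100% of 251 wide peaks had a partner, against 99.1% at 300 to under 600 bp and 95.5% under 300 bp, and from 35 reads upward every control peak of any width had one. Between 10 and 19 reads the shares were 100% of 343 wide peaks, 94.8% and 79.0% in the same order of classes. Knockdown peaks covered 88.4% of the length of the wide peaks, against 76.8% at 300 to under 600 bp and 47.0% under 300 bp. In 275 cases, or 18.6%, the wide peak lay wholly inside a single knockdown peak. This held for 20.4% of control peaks of 300 to under 600 bp and for 13.9% of all control peaks.

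Called width was largely retained as well. Overlaps, covered length and widths were not scaled for depth. The knockdown library had 1.42 times the reads of the control library, and the part of depth in these measures was not tested. The summed width of the knockdown peaks at a member had a median of 695 bp (interquartile range 598 to 804 bp), against 686.5 bp for the control peaks. The median ratio of knockdown to control width was 0.982 (0.974 to 0.991), with an interquartile range of 0.871 to 1.08. For control peaks of 300 to under 600 bp the median ratio was 0.962, with a broader interquartile range of 0.731 to 1.16. Of the wide peaks 1125, or 76.2% (74.0 to 78.4%), had a knockdown width within 0.8 to 1.25 times their own, against 50.9% (49.8 to 52.1%) at 300 to under 600 bp. A knockdown width of at most 50% was found at 35 members, or 2.37%, where 5.73% of all control peaks with a partner and 9.77% of those of 300 to under 600 bp had one. A width of at least 1.5 times occurred at 21 members, or 1.42%, against 15.8% of all control peaks with a partner and 8.58% of those of 300 to under 600 bp. Members start at 600 bp, and only 503 knockdown peaks, or 1.21%, reached 800 bp, so gains of this size had little room. The outer ends of the knockdown peaks lay a median of 1 bp inside the control ends, and 1746 of 2952 ends, or 59.1%, lay within 50 bp. With the 2014 knockdown peaks of 600 bp or more as the choice instead, the median ratio of control to knockdown width was 0.885 (0.875 to 0.894). Of those with a control partner, 66.5% (64.4 to 68.5%) had a control width within 0.8 to 1.25 times their own. How far width was retained thus depends on which list chooses the peaks.

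The widest knockdown peak was 600 bp or more at 1016 members, or 68.8% (66.4 to 71.2%), with split members included. This share was 60.2% (56.7 to 63.6%) at control widths of 600 to under 700 bp, 74.9% (70.3 to 79.2%) at 700 to under 800 bp, 80.8% at 800 to under 900 bp, 86.9% at 900 to under 1000 bp and 95% (38 of 40, 83.1 to 99.4%) at 1000 bp or more. At the other 460 members the widest knockdown peak was under 600 bp.

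**Figure D1:**
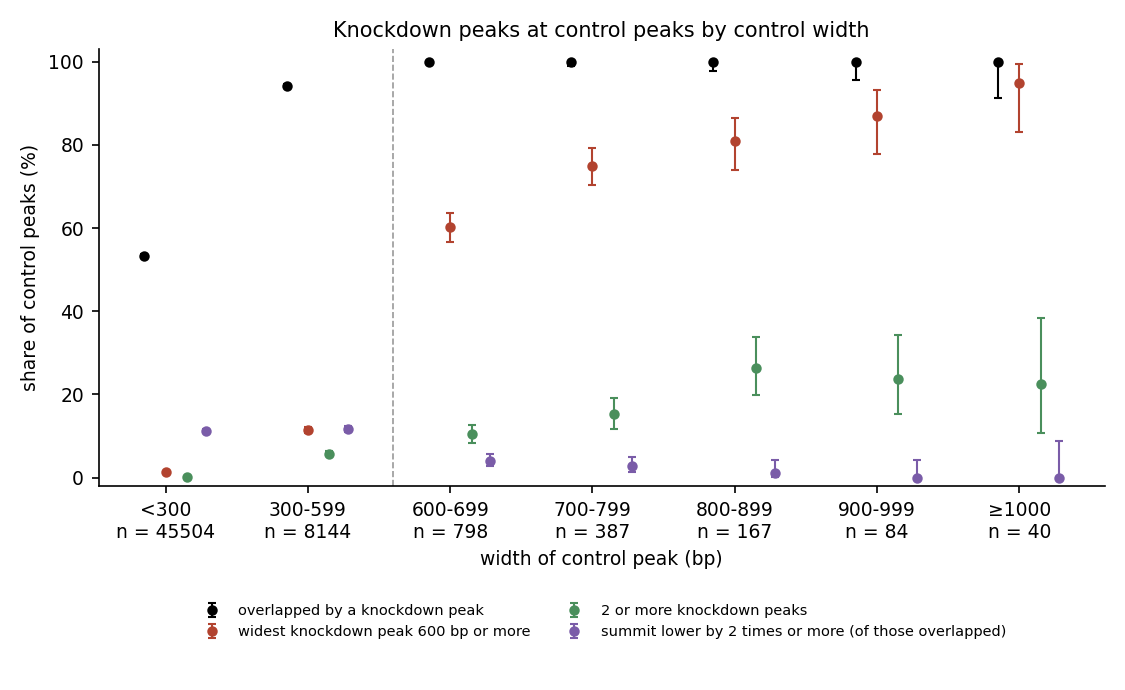
Share of control peaks (vertical axis, %) by width of the control peak (horizontal axis, bp), with 95% exact binomial intervals. The dashed line marks the limit of 600 bp. To its right all peaks are overlapped, the share with a knockdown peak of 600 bp or more goes up from 60.2% to 95%, and the share with a summit lower by 2 times or more is at most 4.01% in the 5 classes drawn.

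The same choice made in the other list gave a different picture of how many peaks were wide. The knockdown list held 2014 peaks of 600 bp or more, 4.85% of its peaks, and the control list 1476. Of the 2014, 1015 overlapped a wide control peak, 998 overlapped narrower control peaks alone and 1 had no control peak. Where the control partners were narrower, the widest of them had a median width of 475 bp. The knockdown library had 1.42 times the reads of the control library, and the part of depth in these counts was not tested.

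At 215 wide control peaks, or 14.6% (12.8 to 16.5%), the knockdown list had 2 or more separate peaks, and at 8 it had 3. Over all control peaks the share with 2 or more was 1.43%, and at 300 to under 600 bp it was 5.78% (5.29 to 6.31%). Narrow peaks have less room for several partners. Within the wide peaks the share was 10.4% (8.37 to 12.7%) at 600 to under 700 bp, 15.2% at 700 to under 800 bp, 26.3% (19.8 to 33.7%) at 800 to under 900 bp, 23.8% at 900 to under 1000 bp and 22.5% at 1000 bp or more, with overlapping intervals in the last 3 classes. The pieces were separated by a median of 97 bp (range 65 to 408 bp over 223 gaps). They had a median width of 272 bp. Splitting was more frequent where the control summit was low: 83 of 343 members with 10 to 19 control reads were split, or 24.2% (19.8 to 29.1%), against 15 of 295 with 40 or more reads, or 5.08% (2.87 to 8.25%). Split members had a median depth-scaled log2 pileup ratio of -0.22 (-0.28 to -0.16), and members with a single knockdown peak had -0.22 (-0.24 to -0.20). Their summed width was smaller, at 0.882 times the control width (0.845 to 0.914) against 0.994 times (0.986 to 1). The converse also occurred, since 488 of the 2014 wide knockdown peaks, or 24.2%, overlapped 2 or more control peaks.

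The members with the most pieces show how a split looked. On chromosome 1, the control peak from 247494765 to 247495811 (hg19, counted from 1, as all positions here) was 1047 bp wide and met 3 knockdown peaks of 501, 438 and 188 bp. Their summits held 29, 29 and 22 reads, against 30 reads at the control summit, or 40.3 after scaling. The first of them also covered a second control peak of 323 bp that lay 66 bp away. On chromosome 10, the control peak from 90639868 to 90640853 was 986 bp wide with 15 reads at its summit. Its 3 knockdown peaks were 199, 483 and 146 bp wide with 15, 16 and 9 reads, and together they covered 82.9% of it. On chromosome 22, the peak from 17517854 to 17518759 was 906 bp wide with 10 reads. The 3 knockdown peaks there were 105, 161 and 237 bp wide with 8, 10 and 11 reads, and they covered 54.3%.

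Among the 10 widest control peaks, all kept a knockdown peak, and 7 of them a single one. The widest, on chromosome 3 from 119812960 to 119814326, had a knockdown peak of 1275 bp against 1367 bp in the control. Its summit held 51 knockdown reads against 37 control reads, a depth-scaled log2 ratio of 0.04. The next, on chromosome 2 from 676260 to 677571, had knockdown peaks of 1215 bp in sum against 1312 bp, and 42 reads against 33. On chromosome 5, the peak from 60626811 to 60628094 lost most in width among the 10: its 2 knockdown peaks came to 939 bp against 1284 bp in the control, while the summit ratio was -0.12. The remaining members of this group had summed knockdown widths of 1127 to 1216 bp against 1170 to 1277 bp in the control. Their depth-scaled ratios ran from -0.40 to -0.06. The strongest of them by pileup was on chromosome 7 from 12726061 to 12727238, with 70 knockdown reads and 65 control reads at the summit.

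The 5 wide peaks of highest control fold were also strong in the knockdown list, and 4 of them were 600 bp or more there. On chromosome 1, the peak from 169454782 to 169455471 had 82 knockdown reads and 77 control reads at its summit, 1 bp apart, and widths of 684 bp and 690 bp. On chromosome 3, the peak from 93698729 to 93699361 had 78 knockdown and 73 control reads at the same base. The other 3 lay on chromosome 7 (64023091 to 64023697), chromosome 1 (247241633 to 247242280) and chromosome 5 (142149567 to 142150192). Their summits held 61, 48 and 53 knockdown reads against 63, 49 and 57 control reads. The knockdown peak at the second of these was 574 bp wide against 648 bp in the control. After depth scaling all 5 were lower in the knockdown library, with log2 ratios of -0.53 to -0.33, although raw pileups differed by at most 5 reads. They were chosen by their control values, and the 119 wide peaks with 50 or more control reads had a median of -0.35 (-0.38 to -0.32).

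**Figure D2:**
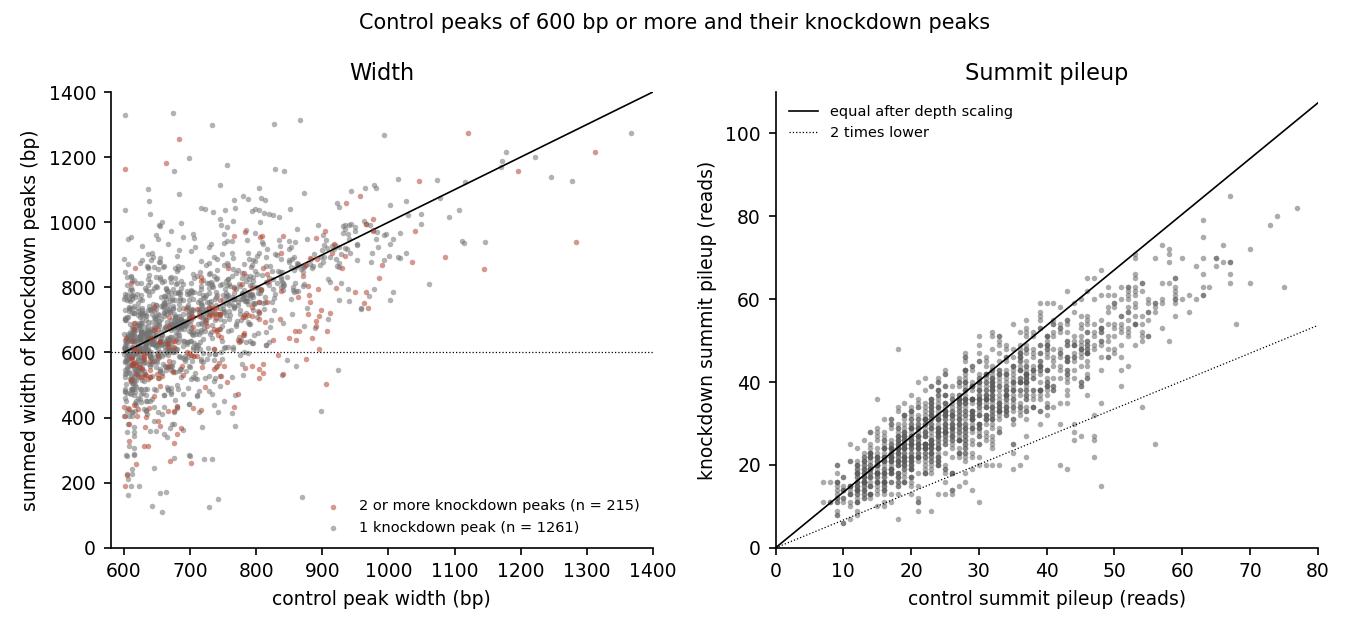
Each point is one of the 1476 wide control peaks. Left, summed width of its knockdown peaks against its own width, in bp (red where there are 2 or more knockdown peaks), with the line of equal width and a dotted line at 600 bp. Right, knockdown against control summit pileup in reads, with the line of equality after depth scaling and, dotted, the line 2 times lower; most points lie between these lines, 45 on or below the dotted one.

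The summits of the wide peaks were modestly lower in the knockdown library after depth scaling, by about as much as those of all shared peaks: relative to the median of those the log2 ratio was 0.026. Over the 1476 members the knockdown summit had a median of 32 reads and ran from 6 to 85. The control summits had a median of 27 reads, or 36.2 after scaling. The median log2 ratio was -0.22 (-0.24 to -0.20), and 1139 members, or 77.2% (74.9 to 79.3%), were below 0. Over all 33358 control peaks with a partner the median was -0.24 (-0.25 to -0.23), and 70.3% (69.8 to 70.8%) were below 0. Of the partnered peaks of 300 to under 600 bp, 75.3% (74.3 to 76.2%) were below 0, close to the share of the members. Around the members the local reads were lower too: the 10 kb held a median of 198 reads in the knockdown library and 159 in the control, a depth-scaled log2 ratio of -0.18 (-0.19 to -0.17). Relative to these local reads the summit ratio was -0.05 (-0.06 to -0.03), against -0.13 (-0.13 to -0.12) over 27933 shared peaks with a measured local background. The 10 kb thus moved with the summits, but its reads include those of the peak. The part of the assumed depth factor in it was not tested.

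The wide peaks stood apart less in their median than in how few of them had a much lower summit. A depth-scaled summit lower by 2 times or more in the knockdown library was found at 45 members, or 3.05% (2.23 to 4.06%), against 11.0% of all control peaks with a partner. It was found at 11.6% (10.9 to 12.4%) of the partnered peaks of 300 to under 600 bp. A summit higher by 2 times or more was found at 0 of 1476 members (upper bound 0.250%), against 1.38% of all. Peaks of 300 to under 600 bp were also seldom that much higher, at 18 of 7673. At like control pileup such rises were rare in every class. Between 20 and 24 control reads they were found at 0% of wide peaks, 0.0779% at 300 to under 600 bp and 0.242% under 300 bp. From 25 control reads upward no peak of any width had one. The interquartile range of the log2 ratio was -0.42 to -0.01 at the members and -0.62 to 0.08 over all. Wide peaks have more reads and so a smaller counting error in the ratio, and the comparison was therefore repeated between peaks of like pileup.

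At equal control pileup, wide peaks kept more of their summit signal than narrow peaks did. Between 30 and 34 control reads, the median log2 ratio was -0.22 (-0.29 to -0.18) at 196 wide peaks and -0.70 (-0.82 to -0.62) at 198 partnered peaks under 300 bp. Of these, 5 wide peaks, or 2.55% (0.833 to 5.85%), and 72 narrow peaks, or 36.4% (29.7 to 43.5%), were lower by 2 times or more. Peaks of 300 to under 600 bp lay between, with a median of -0.38 and 79 of 492 lower. Between 40 and 49 control reads the counts were 9 of 176 wide peaks, or 5.11% (2.36 to 9.49%), and 16 of 48 narrow ones, or 33.3% (20.4 to 48.4%). The wide peaks had the higher median in all 7 bands of control pileup, and in 6 of them the intervals did not overlap. Relative to local reads the medians at 30 to 34 reads were -0.07 for wide and -0.33 for narrow peaks.

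This order was not found when the knockdown list chose the peaks and set the bands. There the median log2 ratio, still knockdown over control and scaled as before, ran from -0.26 to -0.16 over 6 bands for knockdown peaks of 600 bp or more, and from -0.30 to -0.13 for those under 300 bp. The intervals overlapped in each of the 6 bands. Between 27 and 33 knockdown reads the medians were -0.16 (-0.22 to -0.13) at 415 wide and -0.13 (-0.17 to -0.06) at 461 narrow peaks. In that band 2 wide peaks, or 0.482%, and 10 narrow peaks were lower by 2 times or more. The share lower by 2 times or more was smaller in wide peaks in the 3 bands where either class had such a peak. It was 1.11% in wide and 5.50% in narrow peaks between 14 and 26 knockdown reads. In the other 3 bands, with 33, 18 and 6 narrow peaks, it was 0 in both classes. The difference between wide and narrow peaks in the median thus depends on which list sets the bands.

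**Figure D3:**
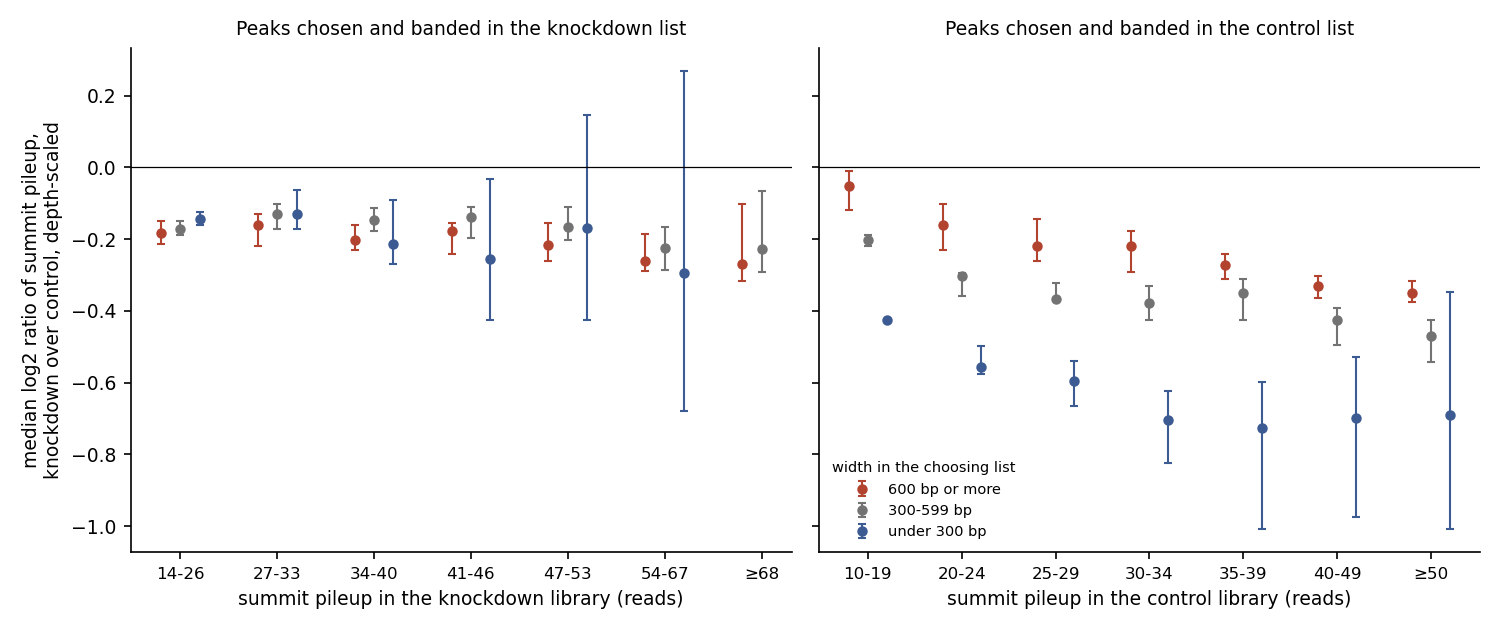
Median depth-scaled log2 ratio of the summit pileup, knockdown over control (vertical axis), by summit pileup in the choosing library (horizontal axis, reads), with 95% intervals of the median, for 3 width classes. Left, with the knockdown list choosing, the classes overlap between about -0.30 and -0.13; right, with the control list choosing, wide peaks lie between -0.35 and -0.05 and peaks under 300 bp between -0.73 and -0.42.

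The 45 members with the lower summits were picked by that ratio, which is therefore only described. Their summits had a median of 15 reads in the knockdown and 28 in the control library. They were narrow for wide peaks, with a median of 652 bp, and none exceeded 869 bp. Their summed knockdown width was a median 0.637 times the control width, against 0.986 times at the other 1431 members. Knockdown peaks covered 59.6% of them, against 89.3% of the others. Split members were 13 of the 45, or 28.9%, and 202 of the other 1431, or 14.1%. The reads of the surrounding 10 kb, which include the peak's own, had a depth-scaled log2 ratio of -0.81 (-0.99 to -0.73), against -0.17 at the others. Other control peaks within 50 kb were also lower more often. Of 73 partnered neighbours under 600 bp, 22, or 30.1% (19.9 to 42.0%), were lower by 2 times or more, against 225 of 2113 near the other members, or 10.6% (9.36 to 12%). Neighbours that shared a knockdown peak with a member were left out of these counts. The share of neighbours with any partner did not differ visibly, at 58.9% (49.7 to 67.6%) against 61.3% (59.7 to 62.9%). The 45 members lay on 16 chromosomes, with 8 of the 190 wide peaks of chromosome 1 and 6 of the 64 of chromosome 13. Of the 45, 10 were 600 to 609 bp wide, at the lower limit of width.

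The lowest ratio belonged to a peak on chromosome 13 from 61236798 to 61237403. It had 15 knockdown reads and 48 control reads at its summit, a depth-scaled log2 ratio of -2.10, and the knockdown peak was 210 bp wide against 606 bp. On chromosome 8, a peak from 122736419 to 122737023 had a pair of knockdown peaks of 121 and 104 bp with 11 reads each, against 30 control reads over 605 bp. Its ratio was -1.87, and that of the reads in the surrounding 10 kb was -1.82. A further peak of chromosome 8, from 38794109 to 38794851, had 7 knockdown and 18 control reads and a ratio of -1.79. The peak on chromosome 14 from 81397131 to 81397785 had 9 knockdown and 23 control reads and a ratio of -1.78. At each of these 4 the local reads were lower as well, with ratios from -1.82 to -1.23.

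The 4 members that narrowed most each kept a single short knockdown peak within or at the edge of the control peak. On chromosome 3, from 116605017 to 116605674, a knockdown peak of 109 bp with 6 reads stood in a control peak of 658 bp with 10 reads. On chromosome 20, from 14200461 to 14201188, it was 125 bp with 9 reads against 728 bp with 21 reads. The peak on chromosome 15 from 22461603 to 22462471 had 157 bp and 16 reads in the knockdown, against 869 bp and 25 reads in the control. On chromosome 13, from 43450031 to 43450673, the knockdown peak of 128 bp with 10 reads lay at one end of a control peak of 643 bp with 11 reads, and the summits were 472 bp apart. The control summits of 10 and 11 reads are low for wide peaks, so the losses of width on chromosomes 3 and 13 rest on few reads.

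At the 4 members that widened most, the knockdown peak also covered a neighbouring control peak. On chromosome 7, from 112090797 to 112091397, a knockdown peak of 1329 bp stood over the control peak of 601 bp and over another of 476 bp that lay 195 bp away. On chromosome 9, from 115095614 to 115096288, a knockdown peak of 1337 bp stood over control peaks of 675 and 164 bp. A second member on chromosome 7, from 106301195 to 106301796, met knockdown peaks of 691 and 474 bp, and the wider of the pair also covered control peaks of 240 and 275 bp. On chromosome 5, from 107716873 to 107717556, the 2 knockdown peaks were 399 and 857 bp wide, and the wider one also covered a control peak of 652 bp that lay 67 bp away. In all, 90 of the 1476 members shared a knockdown peak with another control peak.

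**Figure D4:**
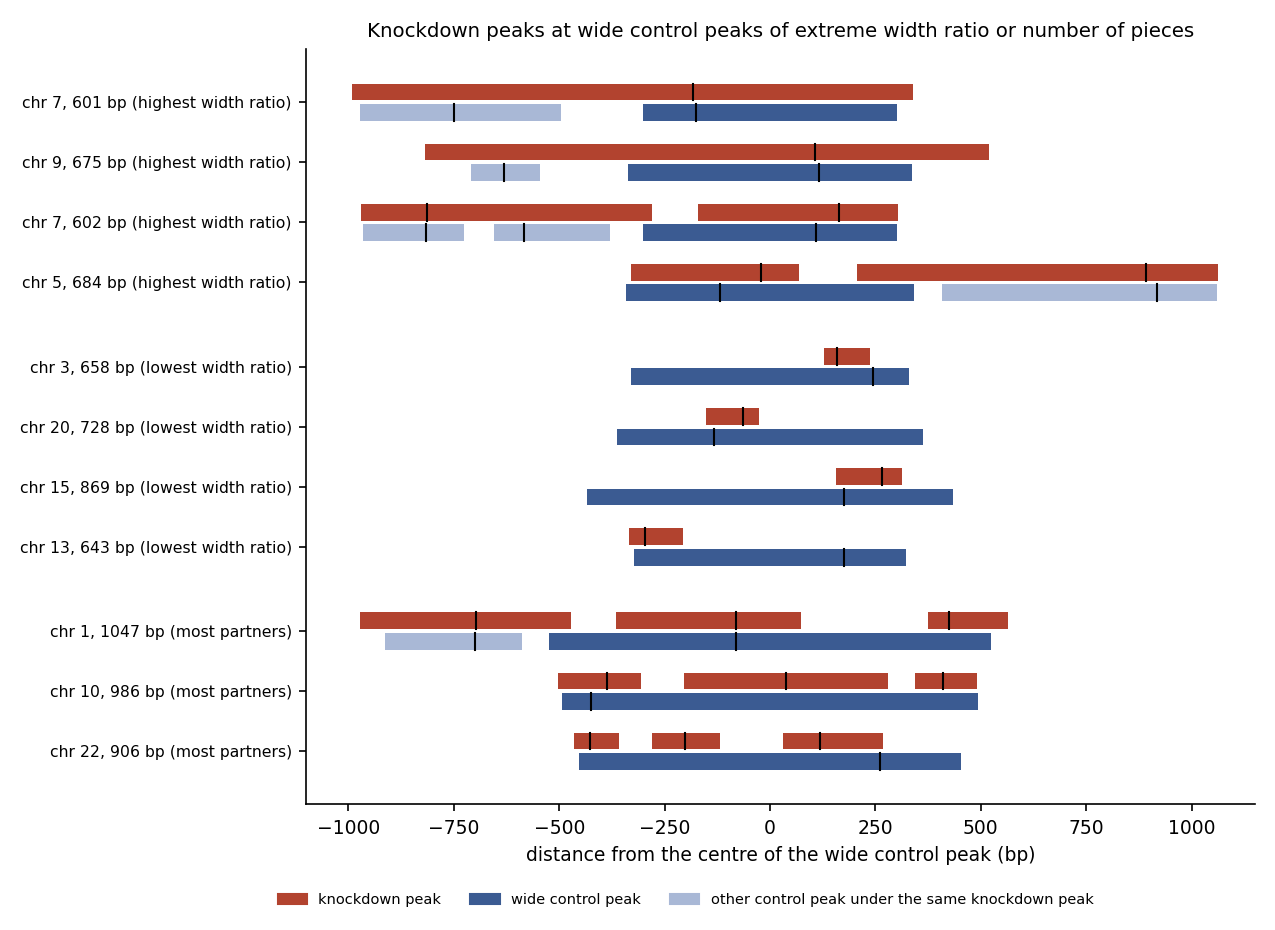
Knockdown peaks (upper bar of each pair) and control peaks (lower bar) drawn to scale around the centre of 11 wide control peaks, in bp, with vertical ticks at the summits. The 4 members of highest width ratio have other control peaks under the same knockdown peak, the 4 of lowest ratio keep 1 short knockdown peak, and the last 3 have 3 knockdown peaks.

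The highest depth-scaled summit ratio, 0.99, was at that peak of chromosome 5, and it does not compare like with like. The knockdown summit of 48 reads lay 1011 bp from the control summit of 18 reads, over the second control peak, whose summit held 37 reads or 49.6 after scaling. The following 3 had summits 31 to 162 bp apart. On chromosome 2, from 201827924 to 201828571, the summit held 36 knockdown and 15 control reads, a ratio of 0.84, with widths of 704 bp and 648 bp. On chromosome 16, from 5007771 to 5008403, it held 16 knockdown and 7 control reads, a ratio of 0.77. The peak on chromosome 20 from 45317857 to 45318489 held 25 knockdown and 11 control reads, a ratio of 0.76. These 3 ratios rest on 7 to 15 control reads, so their counting error is large.

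Summits of knockdown and control peaks lay close together at most members, with a median distance of 39 bp. The distance was at most 50 bp at 842 of 1476 members and at least 200 bp at 199, or 13.5%. The median was 37 bp in the 600 to under 700 bp class and 64.5 bp at 1000 bp or more. Over all control peaks with a partner it was 28 bp, in peaks that leave less room for a shift.

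Wide peaks were unevenly spread over the chromosomes. Chromosome 7 had the largest share of wide peaks in both lists, at 6.41% (5.54 to 7.38%) in the knockdown and 4.32% (3.68 to 5.04%) in the control list. Chromosome 1 followed in the control list, with 5.94% in the knockdown and 3.67% in the control. Chromosome 22 was lowest in both, with 5 of 438 knockdown peaks and 4 of 553 control peaks, or 0.723%. Chromosomes 17 and 20 had 1.19% and 1.15% in the control list, and the knockdown shares there were 3.94% and 2.34%. The control shares went with the median background of all control peaks of a chromosome, with a Spearman rho of 0.895 over 23 chromosomes, which share 1 library. They also went with the share of control peaks with at least 20 summit reads (rho 0.908). The median background was 0.54 reads on chromosome 7 and 0.29 on chromosome 22. Copy number per chromosome was not measured, and its part in these shares was not tested. Among control peaks with at least 20 summit reads, 21.8% were wide on chromosome 1, 20.2% on chromosome 7, 6.92% on chromosome 17 and 10.0% on chromosome 22, the last being 1 of 10.

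**Figure D5:**
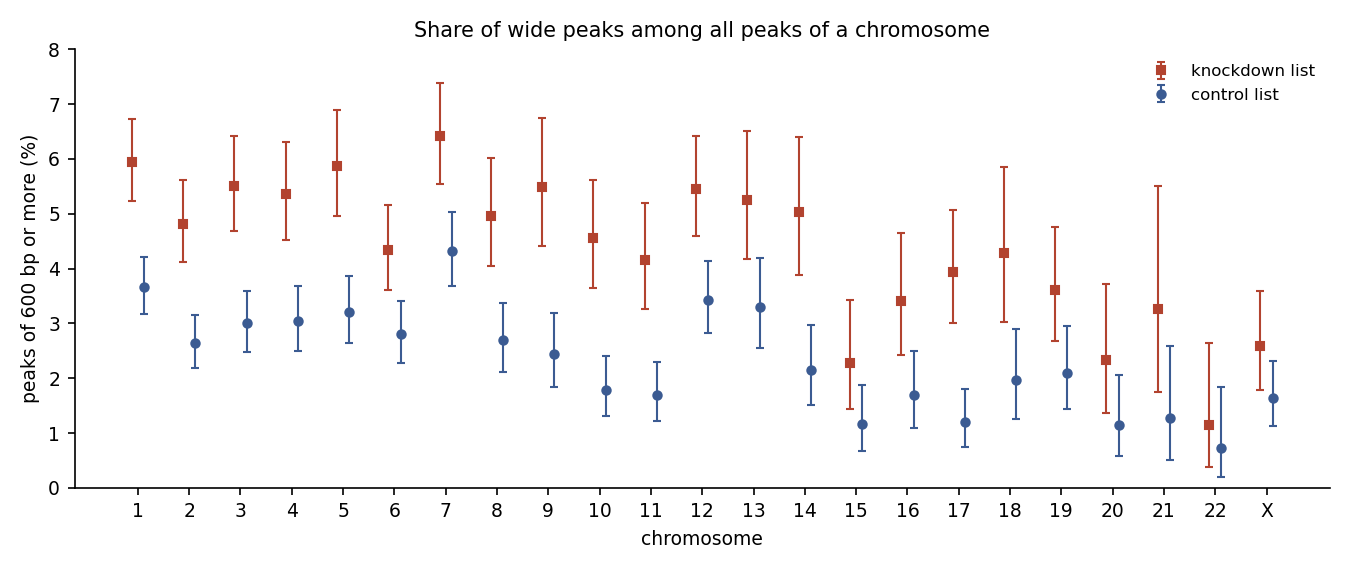
Peaks of 600 bp or more as a share of all peaks of a chromosome (vertical axis, %), for the knockdown list (squares) and the control list (circles), with 95% exact binomial intervals. Chromosome 7 is highest in both lists at 6.41% and 4.32%, and chromosome 22 is lowest in both, at 0.723% in the control list.

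The summit ratios of the wide peaks differed between chromosomes. Among chromosomes with at least 100 wide peaks, the median log2 ratio was -0.11 (-0.21 to -0.04) on chromosome 2 and -0.32 (-0.36 to -0.24) on chromosome 4. Knockdown peaks of 600 bp or more were kept at 72 of 120 wide peaks of chromosome 2, or 60.0%, and at 84 of 104 of chromosome 4, or 80.8%. The median local reads in the control library were 142 on chromosome 2 and 187.5 on chromosome 4. At least 20 control summit reads were found at 84 of the 120 wide peaks of chromosome 2 and at 95 of the 104 of chromosome 4. Over all members the log2 ratio fell with control summit pileup (Spearman rho -0.35). The share keeping 600 bp went from 46.6% at 10 to 19 control reads to 87.4% at 50 or more. The part of pileup in the differences between chromosomes was not tested. These 2 chromosomes were picked with their values in view.

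Wide peaks seldom lay close to one another, but their spacing was not compared with that of as many scattered peaks. The next wide peak lay a median of 388 kb away, and 89 of 1476, or 6.03%, had another within 50 kb. Of 2867 windows of 1 Mb with a control peak, 1014 held a wide one, and 684 of these held exactly 1. The fullest window, from 247 to 248 Mb of chromosome 1, had 6 wide peaks among 20 control peaks. Windows at 6 to 7 Mb and 64 to 65 Mb of chromosome 7 and at 69 to 70 Mb of chromosome 12 had 5 each. Other peaks of any width were about as near to wide peaks as to the rest: 19.6% (17.6 to 21.8%) of wide and 19.8% (19.4 to 20.1%) of narrower control peaks had another within 1 kb. Narrower control peaks within 50 kb of a wide one had a knockdown partner in 61.1% of 3558 cases (59.5 to 62.7%), against 59.4% (59.0 to 59.8%) of all control peaks under 600 bp.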

How the data were processed

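Each library came with 1 deposited peak list in hg19 coordinates. BWA, MACS2 and bcl2fastq 2.17.1.14 were used per the submitters' processing notes, which give no parameters. Each library has a list of its own. In it, the deposited fold is a ratio of summit to background with 1 read added to both. The deposited −log10 p-values and q-values belong to the summit. The deposited score is 10 times the −log10 q-value without decimals and was not used. The sources used here do not say how reads were shifted or filtered.

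The comparison was limited to chromosomes 1 to 22 and X. Summit pileup and background were solved from fold and p-value with a Poisson tail, which gave back every deposited −log10 p-value within 4.2e-05. Folds and p-values were also recomputed from the solved values and solved again. The same pileup came back at all 55124 control and 41540 knockdown peaks. This checks the solving step alone, since the same formulas were used both ways, and cannot test the formulas or the read numbers. The read number followed from the lowest background and the shortest peak (94 bp in the control, 89 bp in the knockdown list), and so rests on the assumption that these are the caller's settings. A member's knockdown pileup is the highest among its partners. Shares carry Clopper-Pearson intervals and medians binomial order-statistic intervals. Neighbouring peaks and amplified reads are not independent.

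The members, width classes and comparisons were chosen with earlier results of these data known. Named regions are the 10 widest, the 5 of highest fold, the 4 at either end of the width and pileup ratios and the 3 with most partners. Python 3.11.15, scipy 1.17.1 and pandas 2.3.3 were used.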

Additional observations from a re-analysis of the deposited data

How the results depend on the processing

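Of 37 alternative values, 22 stayed within the counting interval of the value reported, 14 left it and 1 changed sign. For the share of length covered, the interval used (86.7 to 90.0%) was computed as if over 1476 peaks and not over bases. Whether its alternatives stayed or left is therefore only a rough guide. The share with any partner, 100%, was 99.5% at a width limit of 500 bp, 99.7% where peaks of both lists with q-values over 1e-05 were dropped and 92.9% with reciprocal overlap of 50%. The share with 2 or more knockdown peaks, 14.6%, was 12.4% at 500 bp, 25.1% at 800 bp, 9.91% with the same q-value limit, 10.6% with peaks joined across gaps of 100 bp, and 0% with reciprocal overlap of 50%, where only 1 partner can qualify. The share with a knockdown peak of 600 bp or more, 68.8%, was 49.6% at 500 bp, 84.5% at 800 bp and 75.3% in the 1187 pairs of 1 control and 1 knockdown peak, whose covered length was 90.1%. The width ratio was 0.971 with the widest partner in place of the sum. The log2 pileup ratio of -0.22 was -0.046 relative to local background and 0.026 relative to the median of all pairs, which by construction removes the shift common to all peaks; so the direction given for the members holds for depth scaling and for local scaling alone. It stayed at -0.22 without chromosomes 7 and 13. The pairs, the widest partner and the chromosomes left out were chosen after seeing the data. Where no construction is named, the cause was not tested. Leaving out a replicate was not possible, and no paired analysis was possible because each group has 1 library. The comparison with genes, base composition and motifs was not run, since neither a gene annotation nor a genome of the build hg19 was used.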
